A study of Mus musculus with 2 samples.

Results

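The genes described here are 7 protease inhibitors of the pancreas, namely Spink1, Serpini2, Serping1, Cst3, Timp1, Timp2 and Timp3. They were found by mapping each gene identifier to its symbol, with Spink1 also known by the older symbol Spink3, and make up 7 of the 43346 genes measured. Polyadenylated RNA was measured in the whole pancreas of a female mouse of the inbred C57BL/6J strain, adult at 10 weeks of age, with no treatment or genetic change given. This 1 animal was sequenced as 2 technical replicate libraries, of which replicate 2 was made later than replicate 1. There is therefore 1 group and no second condition, and the SD over the libraries is technical and carries no spread between animals.

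The pancreas makes digestive proteases as inactive zymogens and keeps inhibitors beside them, so that an enzyme activated too early inside the gland can be blocked. Inhibitors fall into families by how they bind. Kazal-type inhibitors sit in the active site of trypsin like a substrate that is hardly released, serpins are cleaved once and trap the protease, cystatins block the cysteine cathepsins of the lysosome, and tissue inhibitors of metalloproteinases, the TIMPs, bind the catalytic zinc site of matrix metalloproteinases. Spink1 and Serpini2 are known as genes of the acinar cell, which makes the digestive enzymes, while TIMPs are known mainly from connective tissue and vessels.

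Expected counts, the read estimates in the deposited tables, totalled 9797569 in replicate 2 and 9441559 in replicate 1. The libraries stood apart in composition. Mitochondrial genes took 3.17% of the counts in replicate 2 and 17.6% in replicate 1, and the noncoding gene Gm42418 took 42.8% in replicate 2 and 16.9% in replicate 1. Values below are deposited TPM, shares of the transcript pool scaled to the same total in both libraries, which are corrected for length and so can be compared between genes. The ratio between libraries is taken from counts scaled by TMM, a factor set on the bulk of the genes, and is given as log2 of replicate 2 over replicate 1 with its exact 95% interval. TPM are not scaled by TMM, so a gene can have a lower TPM in replicate 2 and a log2 ratio above 0. A gene was called when an exact binomial test of its counts gave a Benjamini-Hochberg adjusted p under 0.05 and the ratio was at least 2-fold. This test compares 2 libraries of the same sample, and its intervals cover counting error only. The acinar markers matched the tissue label: Cpa1, Ctrb1, Pnlip, Cela2a, Ptf1a and Bhlha15 were all at 1 TPM or more. They summed to 112487 TPM in replicate 2 and to 80289 TPM in replicate 1. Most of this difference was Cela2a, with 46734 TPM in replicate 2 and 16702 TPM in replicate 1. Cpa1 (12130 TPM in replicate 2, 17943 TPM in replicate 1) and Pnlip (15515 TPM in replicate 2, 18150 TPM in replicate 1) were lower in replicate 2. The other markers were higher there. In bulk tissue, fewer cells of a type and less RNA per cell cannot be told apart.

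All 7 inhibitors were detected in both libraries, and their levels spanned from Spink1 at 1386 TPM to Timp1 at 2.17 TPM by the mean of the libraries. Together they took 0.215% of all TPM in replicate 2 and 0.152% in replicate 1. By this mean the order was Spink1, Cst3, Serpini2, Serping1, Timp2, Timp3 and Timp1. Spink1 was 8.57 times Cst3, and Timp3 was 19.7 times Timp1. The libraries of neighbours in this order did not overlap for Spink1 and Cst3, for Cst3 and Serpini2, for Serping1 and Timp2, and for Timp3 and Timp1. They overlapped for Serpini2 and Serping1 and for Timp2 and Timp3, so the ranges across libraries did not separate these pairs. Within each library Serpini2 still stood above Serping1, and Timp2 above Timp3. Timp2 and Timp3 differed little in replicate 1, at 58.33 TPM and 57.49 TPM. Cst3 and Serpini2 were separated by a narrow gap, with the lower Cst3 library at 133.61 TPM and the higher Serpini2 library at 129.39 TPM.

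**Figure D1:**
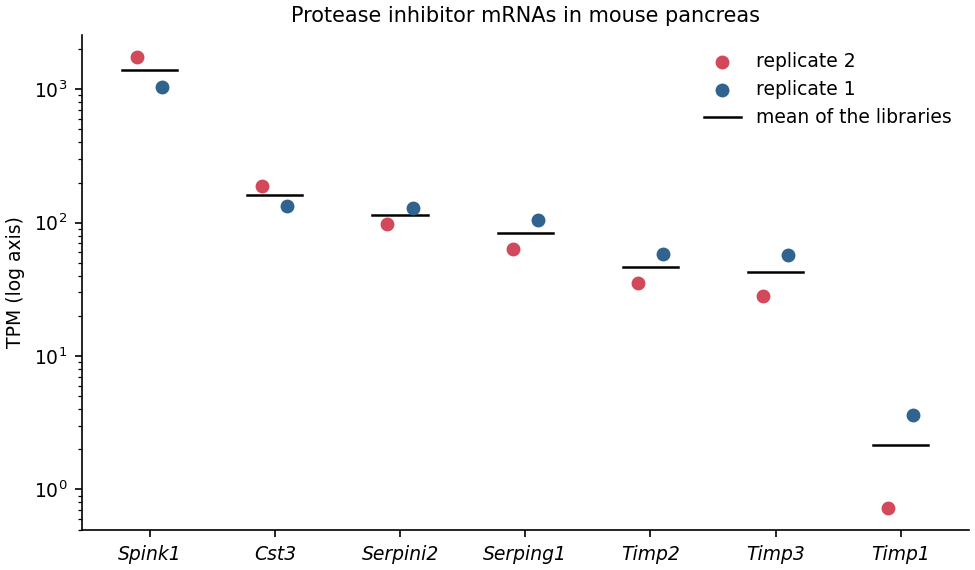
TPM of the 7 inhibitor genes on a log axis, with 1 point per library (replicate 2 on the left of each gene, replicate 1 on the right) and a line at their mean. Spink1 lies above the other inhibitors in both libraries, and Timp1 lies below them at 0.73 TPM in replicate 2 and 3.60 TPM in replicate 1.

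Spink1, the Kazal-type inhibitor that acinar cells pack with trypsinogen and whose loss in mice destroys acinar cells soon after birth, was the most abundant of the inhibitors. It had 1739 TPM in replicate 2 and 1033 TPM in replicate 1, a mean of 1386 ± 500 TPM (SD, n = 2 technical libraries), and was in place 55 among all genes by this mean. The gene (ENSMUSG00000024503.2) lies on chromosome 18 from 43728082 to 43737557 on the minus strand of GRCm38, and its single annotated transcript is 422 bases long. It was counted 3524 times in replicate 2 and 2341 times in replicate 1. Spink1 made up 80.7% of the summed TPM of the 7 inhibitors in replicate 2 and 67.9% in replicate 1. No other Kazal-type gene came near it. Of the 13 Kazal genes measured, only Spink1 reached 1 TPM in both libraries, and 6 had no count in either. Spink4 had 5 counts in replicate 2 and 0 in replicate 1, and Spink11 had 0 counts in replicate 2 and 7 in replicate 1. Counts of 0 allow up to 3 counts, which is 0.306 CPM (counts scaled to library size) in replicate 2 and 0.318 CPM in replicate 1. Spink2 was the remaining Kazal gene among the 4 with the highest means, with 1 count in replicate 2 and 0 in replicate 1.

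Trypsinogen mRNA exceeded Spink1 mRNA many times over. Trypsinogens are the zymogens of trypsin, the protease that Spink1 blocks. The 12 trypsinogen genes that could be matched summed to 43585 TPM in replicate 2 and to 39064 TPM in replicate 1, so that Spink1 amounted to 3.99% of trypsinogen TPM in replicate 2 and to 2.64% in replicate 1, a mean of 3.32%. In other words, there were 25.1 trypsinogen transcripts per Spink1 transcript in replicate 2 and 37.8 in replicate 1. The ratio was 1.51 times as high in replicate 2. Computed from counts with no correction for length, the mean ratio was 0.912%. The Spink1 transcript has 422 bases, the main Prss2 transcript 815 and that of the trypsinogen gene 2210010C04Rik 2142. This last gene held 114793 of 291927 trypsinogen counts in replicate 2 and 235897 of 379179 in replicate 1.

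The 4 most abundant trypsinogen genes divided into 3 that stood higher in replicate 2 and 1 that stood lower. Prss2, the anionic trypsinogen, had 14896 TPM in replicate 2 and 10787 TPM in replicate 1, and Try4 had 13911 TPM in replicate 2 and 9604 TPM in replicate 1. Try5 had 6380 TPM in replicate 2 and 4522 TPM in replicate 1. The gene 2210010C04Rik went the other way, with 7662 TPM in replicate 2 and 13643 TPM in replicate 1, and its main transcript of 2142 bases is longer than that of Prss2. The ratio of Spink1 to each single gene therefore differed in how well the libraries matched. Spink1 was 11.7% of Prss2 in replicate 2 and 9.57% in replicate 1, 12.5% of Try4 in replicate 2 and 10.8% in replicate 1, and 27.3% of Try5 in replicate 2 and 22.8% in replicate 1. Against 2210010C04Rik it was 22.7% in replicate 2 and 7.57% in replicate 1, which is 3.0 times apart. Restricted to Prss1, Prss2, Prss3, Try4, Try5 and Try10, the mean ratio was 4.48%. Trypsinogen genes are close copies of each other, so the division of reads among them is uncertain, though the deposited posterior SD was small beside the counts of these 4 genes. Of the 9 trypsinogens tested, Prss3, Try10 and Prss1 were called higher in replicate 2 and none lower, beside 8.31% of all genes tested called higher. The list median log2 ratio was 0.82, against -0.01 over all genes tested.

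**Figure D2:**
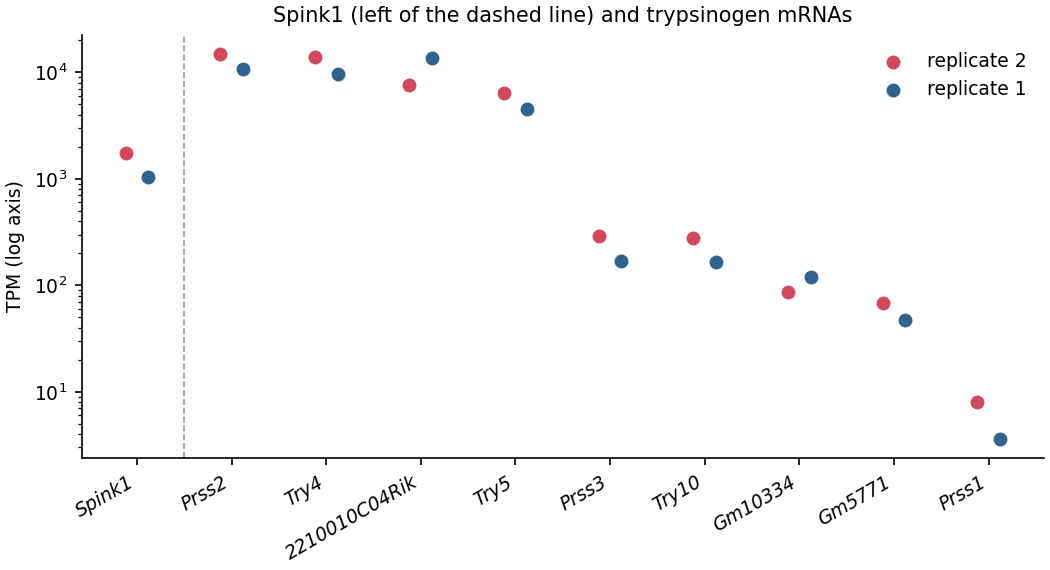
TPM of Spink1 (left of the dashed line) and of the 9 trypsinogen genes at 1 TPM or more on a log axis, with replicate 2 to the left of replicate 1 for each gene. Spink1 lies below the 4 most abundant trypsinogens and above the other 5, and 2210010C04Rik and Gm10334 have their replicate 2 point below replicate 1.

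Chymotrypsinogens and elastases, the other serine protease zymogens of the acinar cell, exceeded Spink1 further. Their 7 genes summed to 132677 TPM in replicate 2 and 73424 TPM in replicate 1, and Spink1 was 1.31% of this sum in replicate 2 and 1.41% in replicate 1. This ratio differed between libraries by less than that to the trypsinogens. The elastase Cela2a had 46734 TPM in replicate 2 and 16702 TPM in replicate 1, and the chymotrypsinogen Ctrb1 had 38071 TPM in replicate 2 and 27460 TPM in replicate 1. The elastase Cela1 had 22625 TPM in replicate 2 and 12187 TPM in replicate 1, and the chymotrypsin-like Ctrl had 12133 TPM in replicate 2 and 11256 TPM in replicate 1. Cela1, Cela2a and Cela3b were called higher in replicate 2 and none of the 7 lower, beside 8.31% of all genes tested called higher. Tmprss15, the enteropeptidase that activates trypsinogen in the gut, had no count in either library, and the trypsin-activated receptor gene F2rl1 had 0.82 TPM in replicate 2 and 1.37 TPM in replicate 1. The lysosomal cathepsins Ctsb, which can activate trypsinogen, and Ctsl, which can degrade it, are given with Cst3.

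The genes whose TPM in both libraries lay closest to that of Spink1, by distance on the log2(TPM + 1) scale over the 2 libraries, were Pdia2, Rpl41 and Tff2. Pdia2, a disulfide isomerase of the pancreas, had 1555 TPM in replicate 2 and 980 TPM in replicate 1, at a distance of 0.18. The ribosomal protein gene Rpl41 had 1437 TPM in replicate 2 and 1033 TPM in replicate 1, at a distance of 0.28. The trefoil factor gene Tff2 had 1945 TPM in replicate 2 and 1304 TPM in replicate 1, at a distance of 0.37. With 2 libraries this likeness is mostly one of level.

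Serpini2, called pancpin, is a serpin of acinar cells whose loss in mice is followed by acinar cell death and pancreatic insufficiency. Its gene (ENSMUSG00000034139.4, chromosome 3, 75242370 to 75270078, minus strand) has 1 annotated transcript of 1411 bases. The 300 bases around its RefSeq start, from 250 before to 50 after, are shown because this gene had the promoter with the fewest CG pairs among the inhibitors examined, and because CACCTG is a form of the E-box that the acinar factor PTF1 binds. The window is chr3:75270029-75270328 on the minus strand of GRCm38.p6, with CACCTG in capitals.
Serpini2: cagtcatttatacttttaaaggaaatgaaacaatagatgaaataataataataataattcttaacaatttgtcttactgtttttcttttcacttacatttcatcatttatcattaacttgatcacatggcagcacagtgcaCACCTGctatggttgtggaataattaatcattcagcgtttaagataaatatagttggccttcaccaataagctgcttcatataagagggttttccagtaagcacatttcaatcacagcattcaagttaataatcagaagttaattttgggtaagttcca
CACCTG began at position -109, counted from the first base of the transcript as 0. The letters CACCTG, searched on both strands, stand in 20.2% of all 32851 RefSeq windows of this length, so a match is common. The letters TATAAA, also searched on both strands, began at position -244 and stand in 13.6% of all windows. The window held 1 CG pair, against a median of 7 over all windows, and 5.43% of windows had fewer. Its GC content was 30.3%, against a median of 52.7%. A match of letters is a description and not a shown binding site.

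Serpini2 was the most abundant serpin of this pancreas. It had 97.51 TPM in replicate 2 and 129.39 TPM in replicate 1, a mean of 113 ± 22.5 TPM (SD, n = 2 technical libraries). The log2 ratio was -0.13 (-0.25 to -0.01), with an adjusted p of 0.0872 in the exact binomial test, and the gene was not called. How close the libraries were depended on the scaling. With library totals the ratio was -0.66, and with totals that leave out mitochondrial genes, Gm42418, Gm26917 and Lars2 it was -0.26. Its nearest named relative in the family, Serpini1 or neuroserpin, a serpin of neurons, had 1.97 TPM in replicate 2 and 1.63 TPM in replicate 1, so Serpini2 was 49.5 times Serpini1 in replicate 2 and 79.4 times in replicate 1.

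Serping1 encodes C1 inhibitor, the serpin that blocks the complement proteases C1r and C1s and plasma kallikrein, and whose deficiency in people causes hereditary angioedema. It had 63.67 TPM in replicate 2 and 104.84 TPM in replicate 1, a mean of 84.3 ± 29.1 TPM (SD, n = 2 technical libraries). The gene (ENSMUSG00000023224.8) lies on chromosome 2 from 84765387 to 84775444 on the minus strand. It was counted 746 times in replicate 2 and 1384 times in replicate 1, a log2 ratio of -0.41 (-0.54 to -0.28, adjusted p = 5.05e-09 in the exact binomial test), which is under 2-fold and was not called. Its main transcript of 1768 bases held 93.1% of its TPM in replicate 2 and 89.1% in replicate 1. A shorter transcript of 903 bases held the rest, 4.39 TPM in replicate 2 and 11.4 TPM in replicate 1.

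Among the targets of Serping1, the C1r and C1s genes were expressed and the contact protease gene F12 was not detected. C1ra, C1rb, C1s1 and C1s2 summed to 45.2 TPM in replicate 2 and 58.5 TPM in replicate 1, all of it from C1ra and C1s1, and Serping1 was 1.41 times this sum in replicate 2 and 1.79 times in replicate 1. The protease gene C1s1 had 29.5 TPM in replicate 2 and 41.7 TPM in replicate 1. The C1q chains, which recognise targets and carry C1r and C1s, were expressed too. C1qb had 20.2 TPM in replicate 2 and 25.1 TPM in replicate 1, C1qa had 23.7 TPM in replicate 2 and 16.8 TPM in replicate 1, and C1qc had 19.6 TPM in replicate 2 and 19.2 TPM in replicate 1. The wider list matched 15 genes of the complement, contact and plasminogen systems, C1q chains and C4b included. Of these, 8 reached 1 TPM in both libraries. The 5 with no count in either were C1rb, C1s2, F11, F12 and Plg. None of the 8 tested was called in either direction, beside 12.3% of all genes tested. Serping1 is also a product of the liver. Of the 4 hepatocyte markers, Ttr, which islet cells also express, had 95.3 TPM in replicate 2 and 113 TPM in replicate 1. Alb had 0.56 TPM in replicate 2 and 0.61 TPM in replicate 1, and Apoa1 had 0.15 TPM in replicate 2 and was at 0 in replicate 1. Serpina1a was at 0 in replicate 2 and had 0.27 TPM in replicate 1.

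Among the other serpins, 13 of 51 reached 1 TPM in both libraries, Serpini2 and Serping1 included, and 23 had no count in either. After these came Serpinh1, the collagen chaperone HSP47, with 33.2 TPM in replicate 2 and 35.2 TPM in replicate 1, and Serpinb6a, an intracellular serpin, with 23.7 TPM in replicate 2 and 21.4 TPM in replicate 1. None of the 14 serpins tested was called in either direction, beside 12.3% of all genes tested, and their median log2 ratio was 0.11, against -0.01 over all genes tested.

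**Figure D3:**
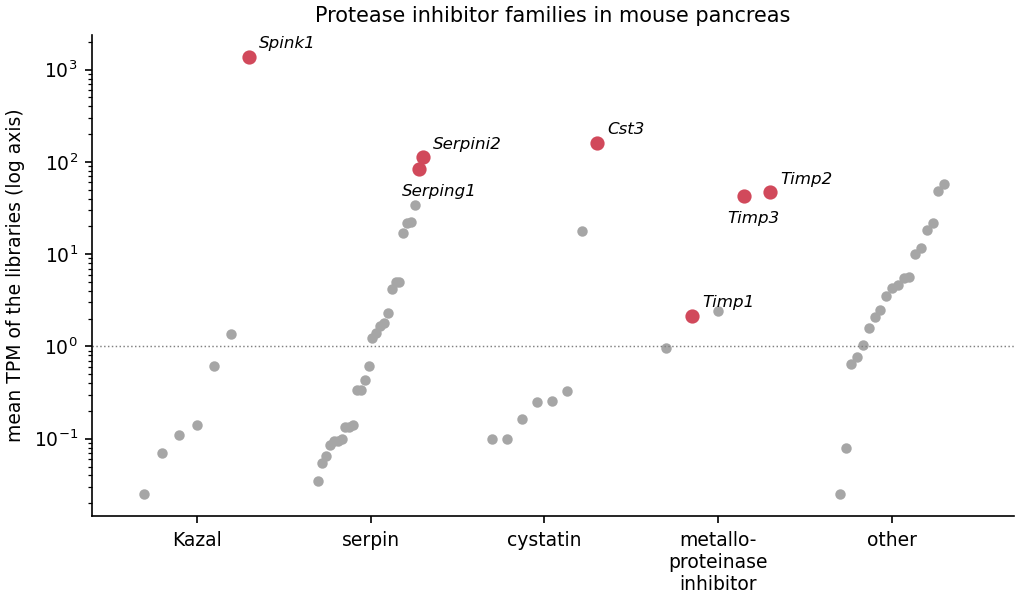
Mean TPM of the libraries on a log axis for every gene with a count in 5 inhibitor families, each family ordered from low to high, with the 7 named inhibitors in red and a dotted line at 1 TPM. Each family is led by 1 of the 7 genes except the group of other inhibitors, and Timp1 lies at 2.17 TPM among the low members of its family.

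Cst3, which encodes cystatin C, a secreted inhibitor of papain-like cathepsins made by most cells, came second of the inhibitors. It had 189.65 TPM in replicate 2 and 133.61 TPM in replicate 1, a mean of 162 ± 39.6 TPM (SD, n = 2 technical libraries). The gene (ENSMUSG00000027447.6) lies on chromosome 2 from 148871722 to 148875692 on the minus strand, and its 860-base transcript held 100% of its TPM in both libraries. It was counted 1010 times in replicate 2 and 814 times in replicate 1. The log2 ratio was 0.79 (0.66 to 0.93, adjusted p = 9.00e-30 in the exact binomial test), under the 2-fold limit. Of 20 cystatins matched, 2 reached 1 TPM in both libraries and 12 had no count in either. The other was Cstb, the cytosolic cystatin B, with 19.1 TPM in replicate 2 and 17.1 TPM in replicate 1. Cst3 was 9.96 times Cstb in replicate 2 and 7.84 times in replicate 1.

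The lysosomal cysteine proteases were expressed at a total like that of Cst3. The 11 genes, which are cathepsins and legumain (Lgmn), summed to 119 TPM in replicate 2 and 156 TPM in replicate 1, so Cst3 was 1.59 times their sum in replicate 2 and 0.858 times in replicate 1. The libraries thus lay on opposite sides of parity. Ctsl had 34.98 TPM in replicate 2 and 40.4 TPM in replicate 1, and Ctsb had 25.9 TPM in replicate 2 and 33.0 TPM in replicate 1. Cst3 was 7.31 times Ctsb in replicate 2 and 4.05 times in replicate 1. Ctsz had 14.5 TPM in replicate 2 and 18.4 TPM in replicate 1, and Ctsh had 11.4 TPM in replicate 2 and 20.3 TPM in replicate 1. Of the 10 of these genes tested, Ctsf was called higher in replicate 2, at a log2 ratio of 1.26, and none lower, beside 8.31% of all genes tested called higher.

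The TIMPs differ in where they act. Timp2 and Timp3 are made constitutively by stromal cells, with Timp2 also needed to activate the matrix metalloproteinase encoded by Mmp2 on the cell surface, and Timp3 bound to the matrix, where it blocks ADAM17 and ADAMTS proteases too. Timp1 is induced by injury and inflammation. The RefSeq windows of the 3 genes are shown with each CG pair in capitals, because Timp1 differed from Timp2 and Timp3 in them. All are from GRCm38.p6: Timp1 is chrX:20869916-20870215 on the plus strand, Timp2 is chr11:118355362-118355661 on the minus strand and Timp3 is chr10:86300162-86300461 on the plus strand.
Timp1: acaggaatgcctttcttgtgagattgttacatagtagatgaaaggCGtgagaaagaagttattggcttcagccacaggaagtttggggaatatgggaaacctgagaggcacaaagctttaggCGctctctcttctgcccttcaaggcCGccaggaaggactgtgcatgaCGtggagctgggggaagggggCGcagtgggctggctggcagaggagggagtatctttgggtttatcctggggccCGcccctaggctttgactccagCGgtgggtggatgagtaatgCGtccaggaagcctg
Timp2: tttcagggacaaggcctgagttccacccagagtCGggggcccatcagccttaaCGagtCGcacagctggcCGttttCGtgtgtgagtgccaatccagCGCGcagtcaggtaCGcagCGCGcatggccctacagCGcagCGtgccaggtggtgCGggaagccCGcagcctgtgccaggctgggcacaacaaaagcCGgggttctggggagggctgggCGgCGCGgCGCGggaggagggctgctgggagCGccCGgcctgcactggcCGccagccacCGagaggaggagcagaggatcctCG
Timp3: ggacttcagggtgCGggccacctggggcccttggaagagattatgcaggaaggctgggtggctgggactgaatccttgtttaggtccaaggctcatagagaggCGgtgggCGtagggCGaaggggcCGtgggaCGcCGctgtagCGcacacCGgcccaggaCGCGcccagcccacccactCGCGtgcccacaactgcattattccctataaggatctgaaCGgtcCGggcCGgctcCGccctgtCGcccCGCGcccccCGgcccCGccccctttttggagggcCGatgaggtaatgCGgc
Timp1 had 8 CG pairs, near the median of 7 over all windows, and 51.4% of windows had fewer. Timp2 had 25, with 81.6% of windows below it, and Timp3 had 24, with 80.0% below it. GC content was 55.0% for Timp1, 68.7% for Timp2 and 67.0% for Timp3. The letters GGGCGG, searched on both strands and present in 35.7% of all windows, occurred in all 3, beginning at -8 in Timp1, at -37 in Timp2, and at -15 and 13 in Timp3. Each GGGCGG contains a CG, so the counts overlap. Positions are counted from RefSeq starts. That of Timp1 matches the start of its gene span in this report, while those of Timp2, Timp3 and Cst3 lie inside their spans. The whole Timp2 window lies inside its gene span, so these windows do not cover like regions. CACCTG began at -107 in Timp2 and at -232 in Timp3. Among the other inhibitors examined, Cst3 had 13 CG pairs at a mean of 162 TPM. Serpini2 had 1 at a mean of 113 TPM. Both thus had fewer CG pairs than Timp2 and Timp3 and higher levels. With so few genes nothing about expression can be read from this.

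Timp2 and Timp3 were expressed at like levels and Timp1 was barely detected. Timp2 had 35.09 TPM in replicate 2 and 58.33 TPM in replicate 1, a mean of 46.7 ± 16.4 TPM (SD, n = 2 technical libraries). Timp3 had 28.02 TPM in replicate 2 and 57.49 TPM in replicate 1, a mean of 42.8 ± 20.8 TPM. Timp1 had 0.73 TPM in replicate 2 and 3.60 TPM in replicate 1, a mean of 2.17 ± 2.03 TPM, from 4 counts in replicate 2 and 22 in replicate 1. Timp1 was in place 8622 of 43346 genes by its mean. The SD of Timp1 was nearly as large as its mean, so its level is known only as a few TPM or less.

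Timp2 (ENSMUSG00000017466.5) lies on chromosome 11 from 118301069 to 118355740 on the minus strand, Timp3 (ENSMUSG00000020044.9) on chromosome 10 from 86300372 to 86349506 on the plus strand, and Timp1 (ENSMUSG00000001131.7) on chromosome X from 20870166 to 20874735 on the plus strand. Timp1 lies within Syn1 and Timp3 within Syn3, synapsin genes on the opposite strand. The sources used here do not say whether counting used strand, so reads of the partners could be mixed. Syn3 was counted 4 times in replicate 2 and 5 times in replicate 1, few beside Timp3 with 964 counts in replicate 2 and 2286 in replicate 1. Syn1 was counted 16 times in replicate 2 and 43 times in replicate 1, more than Timp1. Timp2 spans Cep295nl on its own strand, which had 1 count in replicate 2 and 3 in replicate 1.

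Transcript use was simple in the abundant TIMPs. The 3709-base transcript of Timp2 held 100% of its TPM in both libraries, and the 4722-base transcript of Timp3 held 99.9% in replicate 2 and 99.4% in replicate 1. The 883-base transcript of Timp1 held 100% in replicate 2 and 59.2% in replicate 1, and its 833-base transcript took 40.8% in replicate 1. These Timp1 shares rest on 4 counts in replicate 2 and 22 in replicate 1 and cannot be told apart at this depth.

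The protease genes opposite the TIMPs were low. The 23 matrix metalloproteinase genes summed to 35.6 TPM in replicate 2 and 34.6 TPM in replicate 1, and 7 of them reached 1 TPM in both. The 4 TIMP genes, Timp4 included, were 1.81 times this sum in replicate 2 and 3.49 times in replicate 1. Mmp2, a gelatinase, led with 8.56 TPM in replicate 2 and 9.40 TPM in replicate 1, and Mmp14, its membrane-bound activator, followed with 7.22 TPM in replicate 2 and 7.90 TPM in replicate 1. Timp2 was 4.10 times Mmp2 in replicate 2 and 6.21 times in replicate 1. Mmp23 had 5.47 TPM in replicate 2 and 4.14 TPM in replicate 1, and Mmp15 had 3.92 TPM in replicate 2 and 3.86 TPM in replicate 1. Of 9 metalloproteinases tested, Mmp23 and Mmp17 were called higher in replicate 2 and none lower, beside 8.31% of all genes tested called higher and 4.0% called lower.

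The ADAM and ADAMTS genes that Timp3 can block were in the same range. Adam10 had 6.92 TPM in replicate 2 and 10.0 TPM in replicate 1, Adamts1 had 3.96 TPM in replicate 2 and 5.47 TPM in replicate 1, Adam17 had 3.22 TPM in replicate 2 and 4.80 TPM in replicate 1, and Adamts5 had 2.16 TPM in replicate 2 and 4.20 TPM in replicate 1. Timp3 was 8.70 times Adam17 in replicate 2 and 11.98 times in replicate 1. None of the 7 genes tested was called, beside 12.3% of all genes. The remaining metalloproteinase inhibitors were Reck, a membrane-anchored inhibitor, with 2.08 TPM in replicate 2 and 2.82 TPM in replicate 1, and Timp4, with 0.74 TPM in replicate 2 and 1.19 TPM in replicate 1.

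Between the libraries, Spink1 was called higher in replicate 2 and Timp1 was called lower, and the other 5 inhibitors were not called. These 2 of 7 stand beside 1533 of 12452 genes called in either direction, 12.3% of those tested, of which 1035 (8.31%) were higher and 498 (4.0%) were lower in replicate 2. The share among the inhibitors is larger than this background, but with 7 genes it rests on Spink1, just past the limit, and on Timp1, with few counts. Scaling by library totals alone turned this split round, with 11.6% of calls higher in replicate 2 against 67.5% with TMM. The log2 ratio of Spink1 was 1.07, with an interval of 0.997 to 1.15 that reached just below the 2-fold limit. This ratio was a 2.10-fold difference, with an adjusted p of 1.64e-173 in the exact binomial test. It lay just past the 2-fold limit and fell below it at 0.54 with library totals, at 0.94 with totals that leave out mitochondrial genes, Gm42418, Gm26917 and Lars2, and at 0.91 after removal of a trend with transcript length. The log2 ratio of Timp1 was -1.84 (-3.97 to -0.42), with an adjusted p of 0.0264 in the exact binomial test. Timp2 had a log2 ratio of -0.46 (-0.58 to -0.35, adjusted p = 2.96e-14 in that test) and Timp3 one of -0.76 (-0.87 to -0.65, adjusted p = 1.00e-43). With library totals Timp3 came to -1.30 and would have been called.

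The direction of each of the 7 ratios was the same under every scaling tried, with Spink1 and Cst3 higher in replicate 2 and Serpini2, Serping1 and the 3 TIMPs lower. A change of scaling moves all genes by the same amount. The shifts were downward or, with DESeq2 size factors, only 0.003. Spink1 and Cst3 alone could therefore have changed direction, and for the other genes the scalings were no test of it. Library totals shifted the log2 ratio of every gene by -0.54, and the reduced totals shifted it by -0.13. A count model that allows for variation between samples, edgeR's exact test with the dispersion set to 0.1, called 45 genes in all and none of the 7, with an adjusted p of 1 for each. The unadjusted p in that test was 0.105 for Spink1 and 0.0639 for Timp1.

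Transcript length moved with the ratio over all genes tested. Of genes with a main transcript under 500 bases, the class of Spink1, 18.3% were called higher in replicate 2, and of genes with 4000 bases or more, the class of Timp3, 2.91% were. The median log2 ratio was 0.17 in the shortest class and -0.17 in the longest. In the class from 500 to 1000 bases, which holds Cst3 and Timp1, the median was 0.14 and 13.7% were called higher. The class from 1000 to 2000 bases, with Serpini2 and Serping1, had a median of 0.14 and 12.3% called higher, and the class from 2000 to 4000 bases, with Timp2, had a median of 0.02 and 7.32% called higher. After removal of the trend Timp2 had a log2 ratio of -0.44, Timp3 of -0.66, Serping1 of -0.52 and Cst3 of 0.64.

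**Figure D4:**
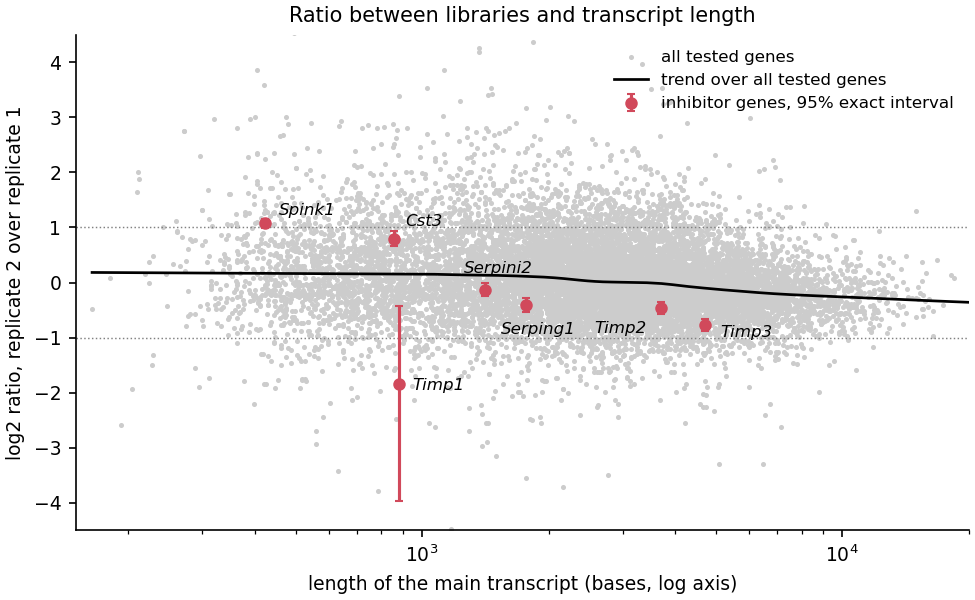
Log2 ratio of replicate 2 over replicate 1 against the length of the main transcript (log axis) for all 12452 tested genes in grey, of which 37 lie outside the axes, with their trend in black and the 7 inhibitors in red with exact 95% intervals. Dotted lines mark 2-fold. The trend declines with length, and each inhibitor lies away from it on the side of its own sign.

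The fibroblast, stellate, smooth muscle and pericyte markers all had lower TPM in replicate 2 except Col3a1, and by differing amounts. Col3a1 was higher by TPM, but its counts were 1630 in replicate 2 and 2516 in replicate 1, a log2 ratio of -0.14. The 6 fibroblast and stellate markers summed to 334 TPM in replicate 2 and 562 TPM in replicate 1, most of it Dcn, and the 4 smooth muscle and pericyte markers summed to 101 TPM in replicate 2 and 166 TPM in replicate 1. Dcn, a matrix proteoglycan, had 218 TPM in replicate 2 and 442 TPM in replicate 1, and the collagen genes differed less. Col3a1 stood at 59.5 TPM in replicate 2 and 53.5 TPM in replicate 1, Col1a2 at 24.6 TPM in replicate 2 and 25.9 TPM in replicate 1 and Col1a1 at 15.99 TPM in replicate 2 and 19.8 TPM in replicate 1. Acta2, smooth muscle actin, had 60.9 TPM in replicate 2 and 89.1 TPM in replicate 1, and the pericyte gene Rgs5 had 21.95 TPM in replicate 2 and 46.5 TPM in replicate 1. Without Dcn the other 5 fibroblast and stellate markers summed to 116 TPM in replicate 2 and 119 TPM in replicate 1, a ratio of 0.977, and the smooth muscle and pericyte sum had a ratio of 0.609. The TPM ratio of replicate 2 to replicate 1 was 0.607 for Serping1, 0.602 for Timp2 and 0.487 for Timp3. None of these stromal markers was at 0 in either library, and none was called. Their median log2 ratios were -0.05 for fibroblast and stellate and -0.43 for smooth muscle and pericyte markers. For the acinar markers, 1 of 6 was called higher, Cela2a, and the median log2 ratio was 0.46. The 4 endothelial markers summed to 206 TPM in replicate 2 and 230 TPM in replicate 1. The 5 macrophage markers summed to 134 TPM in replicate 2 and 135 TPM in replicate 1. The part of length, composition and cell markers in the differences of the inhibitors was not tested.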

How the data were processed

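Polyadenylated RNA of 1 mouse pancreas was measured in 2 technical replicate libraries. Per the deposited README files, values rest on mm10 and GENCODE M4, and for the aligner and quantifier, not given in the sources used here, no name can be stated. Gene and transcript rows carry an expected count, an estimate that need not be whole, per the file headers, and the deposited TPM and FPKM correct it for length. The deposited posterior mean TPM, treated as a signal, and the deposited FPKM served as alternatives. The deposited percent of each isoform was read for comparison with shares computed here from transcript TPM.

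Symbols came from GENCODE M21 on GRCm38, matching 42462 of 43346 gene identifiers, and promoter windows from RefSeq on GRCm38.p6, used for 5 of the 7 genes. Spike-in and numbered rows, 26345 in all, held 0 counts and were left out. Symbols not matched were Prss1l, Prss3l, Prss3b, Csta2, Csta3 and Klkb1. Expected counts were rounded, and TMM factors were computed in R 4.3.3 with edgeR 4.0.16. A quasi-likelihood fit has no residual degrees of freedom with 1 library a side, so an exact two-sided binomial test was used on genes with a mean of 10 counts or more, with Benjamini-Hochberg adjustment and 0.5 added to both counts for ratios. The test was also run on simulated counts with counting error alone, which cannot show how it behaves with further spread between libraries. Intervals are Clopper-Pearson intervals at 95% and, like floors of 3 counts, cover counting error only. They also treat each count as a separate molecule, which PCR copies are not.

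In each of 23 gene lists the rule named the 4 genes with the highest mean TPM, with any inhibitor called and the 3 genes nearest to Spink1. Genes under 1 TPM in both libraries were mostly left unnamed, and marker lists are given mainly by sums. Cela3b, Prss3, Try10, Prss1, Ctsf, Mmp17, F2rl1, Tmprss15, Serpini1, Lgmn, C4b, C1rb, C1s2, F11, F12 and Plg were named after their values were seen. The members and lists were chosen with earlier results of these data known. Alternatives were DESeq2 1.42.0 size factors, library totals, filters, pseudocounts, posterior means, an assumed dispersion and leaving out a library. Python 3.11.15 with scipy 1.17.1 and statsmodels 0.14.6 was used.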

Additional observations from a re-analysis of the deposited data

How the results depend on the processing

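The direction of the log2 ratio was the same for all 7 inhibitors under every alternative run. Changes of scaling moved all genes alike, downward or by a very small amount. Among the inhibitors only Spink1 and Cst3 could therefore have changed direction with them. The count of called genes, 1533, became 2945 with library totals, 649 when genes needed a mean of 50 counts and 45 with the edgeR exact test at a dispersion of 0.1. The filter tests fewer genes and the dispersion assumes more spread. Library totals shifted every log2 ratio by -0.54 against the same 2-fold limit, and 11.6% of calls were then higher in replicate 2. Spink1 fell under the 2-fold limit with library totals (log2 0.54), with totals without mitochondrial genes, Gm42418, Gm26917 and Lars2 (0.94) and with a length trend removed (0.91, an alternative chosen after seeing the data), and Timp3 passed it with library totals (-1.30). The ratio of Spink1 to trypsinogens, 3.32%, was 0.912% from counts and 4.48% over 6 trypsinogens, and without replicate 1 or without replicate 2 it was 3.99% or 2.64%. With TPM rescaled to leave out the same abundant genes, mean levels were 2281 for Spink1, 185 for Serpini2, 137 for Serping1, 266 for Cst3, 76.2 for Timp2 and 69.6 for Timp3. No paired analysis was possible because there is 1 group. The libraries share 1 animal, so no statement extends to other mice, and the depth limits Timp1, Timp4 and the low Kazal genes to a few counts.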

Other observations

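Inhibitors outside the 4 classical families were led by Slpi, the secretory leukocyte protease inhibitor of mucosal surfaces, with 76.3 TPM in replicate 2 and 38.8 TPM in replicate 1. Spint2, a Kunitz-type inhibitor of membrane serine proteases, had 49.6 TPM in replicate 2 and 46.5 TPM in replicate 1. Pebp1, known mainly as a Raf kinase inhibitor and named for its phospholipid binding, had 31.3 TPM in replicate 2 and 12.3 TPM in replicate 1. Spint1, the related Kunitz-type inhibitor of hepsin and matriptase, had 13.8 TPM in replicate 2 and 22.7 TPM in replicate 1. Of the 14 tested in this group of 23, Slpi (log2 ratio 1.04, adjusted p = 6.13e-17 in the exact binomial test) and Pebp1 (1.62, adjusted p = 6.73e-24 in that test) were called higher in replicate 2 and 0 lower, beside 8.31% of all genes tested called higher.

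Over the 5 inhibitor lists together, 31 of 112 genes reached 1 TPM in both libraries. They summed to 2514 TPM in replicate 2 and to 1851 TPM in replicate 1, and the 7 inhibitors of the report made up 85.7% of this in replicate 2 and 82.1% in replicate 1. Of the 36 genes tested, 3 were called higher in replicate 2 and 1 lower, near the 12.3% of all genes tested called in either direction, with a median log2 ratio of 0.10 against -0.01 over all genes tested. Among other cell types, the islet markers summed to 22555 TPM in replicate 2 and 20778 TPM in replicate 1, the duct markers to 113 TPM in replicate 2 and 140 TPM in replicate 1, and the adipocyte markers to 162 TPM in replicate 2 and 273 TPM in replicate 1. The hepatocyte markers summed to 96.0 TPM in replicate 2 and 114 TPM in replicate 1, nearly all of it Ttr, which islets also express. The T and B cell markers summed to 1.18 TPM in replicate 2 and 3.81 TPM in replicate 1. The globin genes Hba-a1 and Hbb-bs, markers of blood, summed to 2145 TPM in replicate 2 and to 931 TPM in replicate 1, and both were called higher in replicate 2.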
